A study of Glycine max with 20 samples.

Results

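The seed coat is the maternal layer that encloses the soybean embryo. RNA of the seed coat at mid maturation was set against RNA of the seed coat at early maturation in 4 control libraries. The mid stage (SC100) was represented by 2 libraries from seed coats of seeds of 100 to 200 mg fresh weight, and the early stage (SC25) by 2 libraries from seed coats of seeds of 25 to 50 mg. All 4 came from greenhouse plants of Glycine max cultivar Williams that had received no treatment, and the seed coats were dissected away from the cotyledons, with several seeds to a sample. The 4 libraries were chosen as every control (CT) library of the seed coat among the 20 libraries of the series, of which 18 had a count table. CT libraries hold total RNA that was broken into fragments of footprint length, and footprint (FP) libraries hold the fragments that ribosomes protected in the same powdered tissue. The 4 FP libraries of the seed coat and the 4 CT libraries of cotyledons of the same seed weights (C100 and C25) are used below only to show what the seed coat RNA change looked like in other measurements. The labels call the libraries of a group biological repeats without naming the plants, so the p-values describe the spread between these libraries.

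In young legume seeds the coat grows by cell division and cell expansion. Its outer palisade and hourglass cells later thicken their walls, its vascular bundles unload sucrose and amino acids for the embryo, and its inner layers make flavonoids and proanthocyanidins. Cellulose synthases, fasciclin-like proteins and xylan enzymes build thick walls, histones and mitotic kinases mark dividing cells, and peroxidases and BURP domain proteins are well known products of the soybean seed coat.

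The CT libraries held 10599448 and 8897036 counts at SC100 and 32562521 and 9115248 counts at SC25. The detection floor, set at 3 counts on a 1 kb transcript, corresponds to 0.283 and 0.337 RPKM (reads per kb of cDNA and 1000000 counts) in the SC100 libraries and to 0.092 and 0.329 RPKM in the SC25 libraries, for counting error only. Of the counts, 68.3% to 72.2% at SC100 and 62.1% to 71.8% at SC25 fell on 59 gene models that exceeded 5000 RPKM in at least 1 of them. Both replicates 1 stood apart. SC100 replicate 1 had counts on 22898 primary models (the first splice form of a gene), against 36737 to 41201 in the other 3 libraries, and only 2606 of its models had 2 to 7 counts, against 9312 to 12816 in the others. SC25 replicate 1 had 4924 models with 8 to 31 counts, against 10150 to 13716 in the others. The cause of these gaps was not tested. Across primary models the Spearman correlation of replicates 1 and 2 was 0.506 at SC100 and 0.353 at SC25, against 0.892 in C100 and 0.886 in C25 cotyledons, so that the seed coat replicates spread far more than the cotyledon replicates. The CT libraries did not group by stage, since over 14469 models SC100 replicate 2 had a correlation of 0.771 with SC25 replicate 2, against 0.594 with SC100 replicate 1, and SC25 replicate 2 had 0.443 with SC25 replicate 1.

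**Figure D1:**
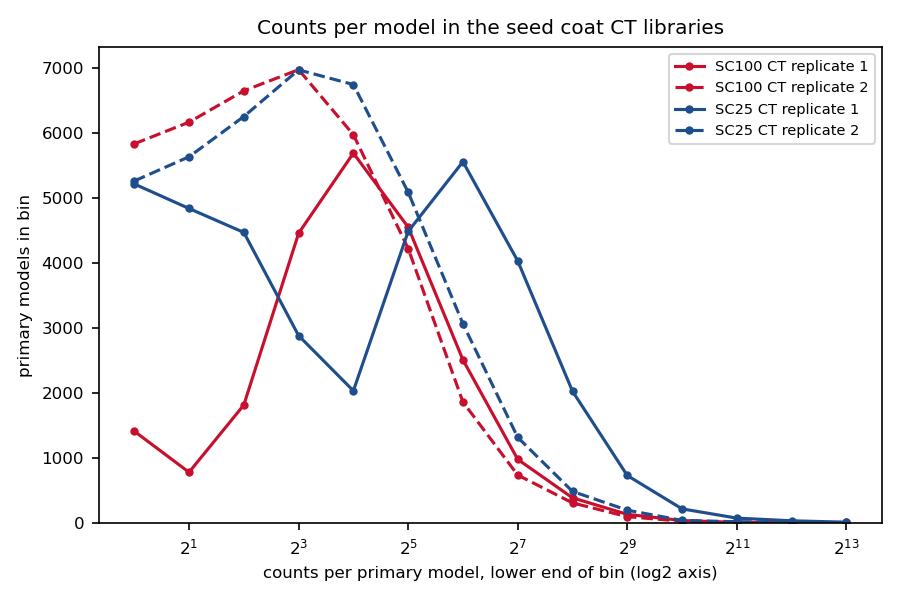
Number of primary models (y axis) by counts per model (x axis, log2 scale, bins that double in width) in the 2 SC100 and the 2 SC25 control libraries of the seed coat. Both replicates 2 follow a smooth curve, while SC100 replicate 1 has few models at 2 to 7 counts and SC25 replicate 1 has few at 8 to 31.

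The labelled tissue was checked against marker lists. The summed RPKM of 19 storage protein models, products of the embryo, was 292 and 381 in the SC100 libraries and 398 and 22.6 in the SC25 libraries, against 17000 and 13100 in C100 and 4250 and 5240 in C25 cotyledons. At most 1 of the 19 models was at 0 in a seed coat library. The 13 oleosin models summed to 53.5 and 76.4 RPKM at SC100 and to 51.2 and 16.9 RPKM at SC25. RNA of embryo genes was therefore low in all 4 libraries and lowest in SC25 replicate 2. The 15 BURP domain models summed to 224 and 187 RPKM at SC100 and to 325 and 315 RPKM at SC25, against 45.0 to 302 RPKM in the cotyledon libraries. The 66 models of the xylem list, laccases included, summed to 81.2 and 74.6 RPKM at SC100 and 47.3 and 58.5 RPKM at SC25, and to at most 2.13 RPKM in cotyledons. The laccase list of 59 models alone summed to 76.6 and 72.6 RPKM at SC100 and 45.6 and 56.4 RPKM at SC25. These sums thus speak for laccases more than for xylem. A second xylem list of 13 models, which holds xylem bark cysteine peptidase 3, did not separate the tissues, with sums of 82.3 and 61.3 RPKM at SC100 and 63.3 and 11.2 RPKM at SC25 and that gene (Glyma.08G116300.1) at 1550 and 1180 RPKM in C100 cotyledons. The 32 phloem models summed to 24.2 and 27.5 RPKM at SC100 and to 12.1 and 68.7 RPKM at SC25. Of the 58 endosperm models, 53 to 56 were at 0 in each of the 4 libraries. The 190 class III peroxidases did not separate the tissues. They had sums of 5940 to 8790 RPKM in seed coats and 3740 to 5750 RPKM in cotyledons, and most of both came from Glyma.13G167100.1. In bulk samples, fewer cells of a type and less RNA per cell cannot be told apart.

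Between the stages, 45 primary models passed the test, 14 higher and 31 lower at SC100. The models that rose included wall proteins and enzymes, a pair of BEL1-like homeodomain factors and several proteins of unknown function, and those that fell included 2 mitotic kinases, a kinesin, a histone, 2 gibberellin-regulated peptides, 3 MATE efflux transporters and 3 receptor kinases. The test covered 57570 of 88515 models, namely those whose counts in these libraries came to 10 or more, and 31544 of them were primary. The threshold was a Benjamini-Hochberg adjusted p of 0.05 over all models tested, in a two-sided quasi-likelihood test of edgeR, and 0.0444% of the primary models were called higher and 0.0983% lower. In all, 253 primary models (0.802%) were higher and 1295 (4.11%) lower at an unadjusted p under 0.05. The median log2 fold change of the 14452 primary models with a mean of at least 1 RPKM was -0.255, and with upper-quartile scaling it was 0.02, so that single changes are best read relative to this shift. For all 45 models both libraries of the higher stage stood above both of the lower stage. Among the 14452 models this held for 7.69% with SC100 above and 28.9% with SC100 below, and for 12.9% and 22.1% on TMM library sizes, on which all 45 also did not overlap.

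The calls depended on the library set. Without SC100 replicate 1 or without SC25 replicate 2 no model was called, without SC100 replicate 2 there were 2 calls and without SC25 replicate 1 there were 62, of which 15 were among the 45. DESeq2 called 29 primary models, 26 of them among the 45, and with at least 10 counts in every library edgeR called 0 of 12262, with 548 at an unadjusted p under 0.05. A fit with the cotyledon CT libraries that left out both seed coat replicates 1 called 559 primary models, 33 of the 45 among them, but it sets 1 SC100 library against 1 SC25 library and takes the spread from the cotyledons, and the like fit without SC100 replicate 1 alone called 0, with 3085 at an unadjusted p under 0.05. All 45 kept their direction in each of the 15 alternatives that gave them a value. Since the stages did not overlap in any of them, this was largely given beforehand and adds no support.

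**Figure D2:**
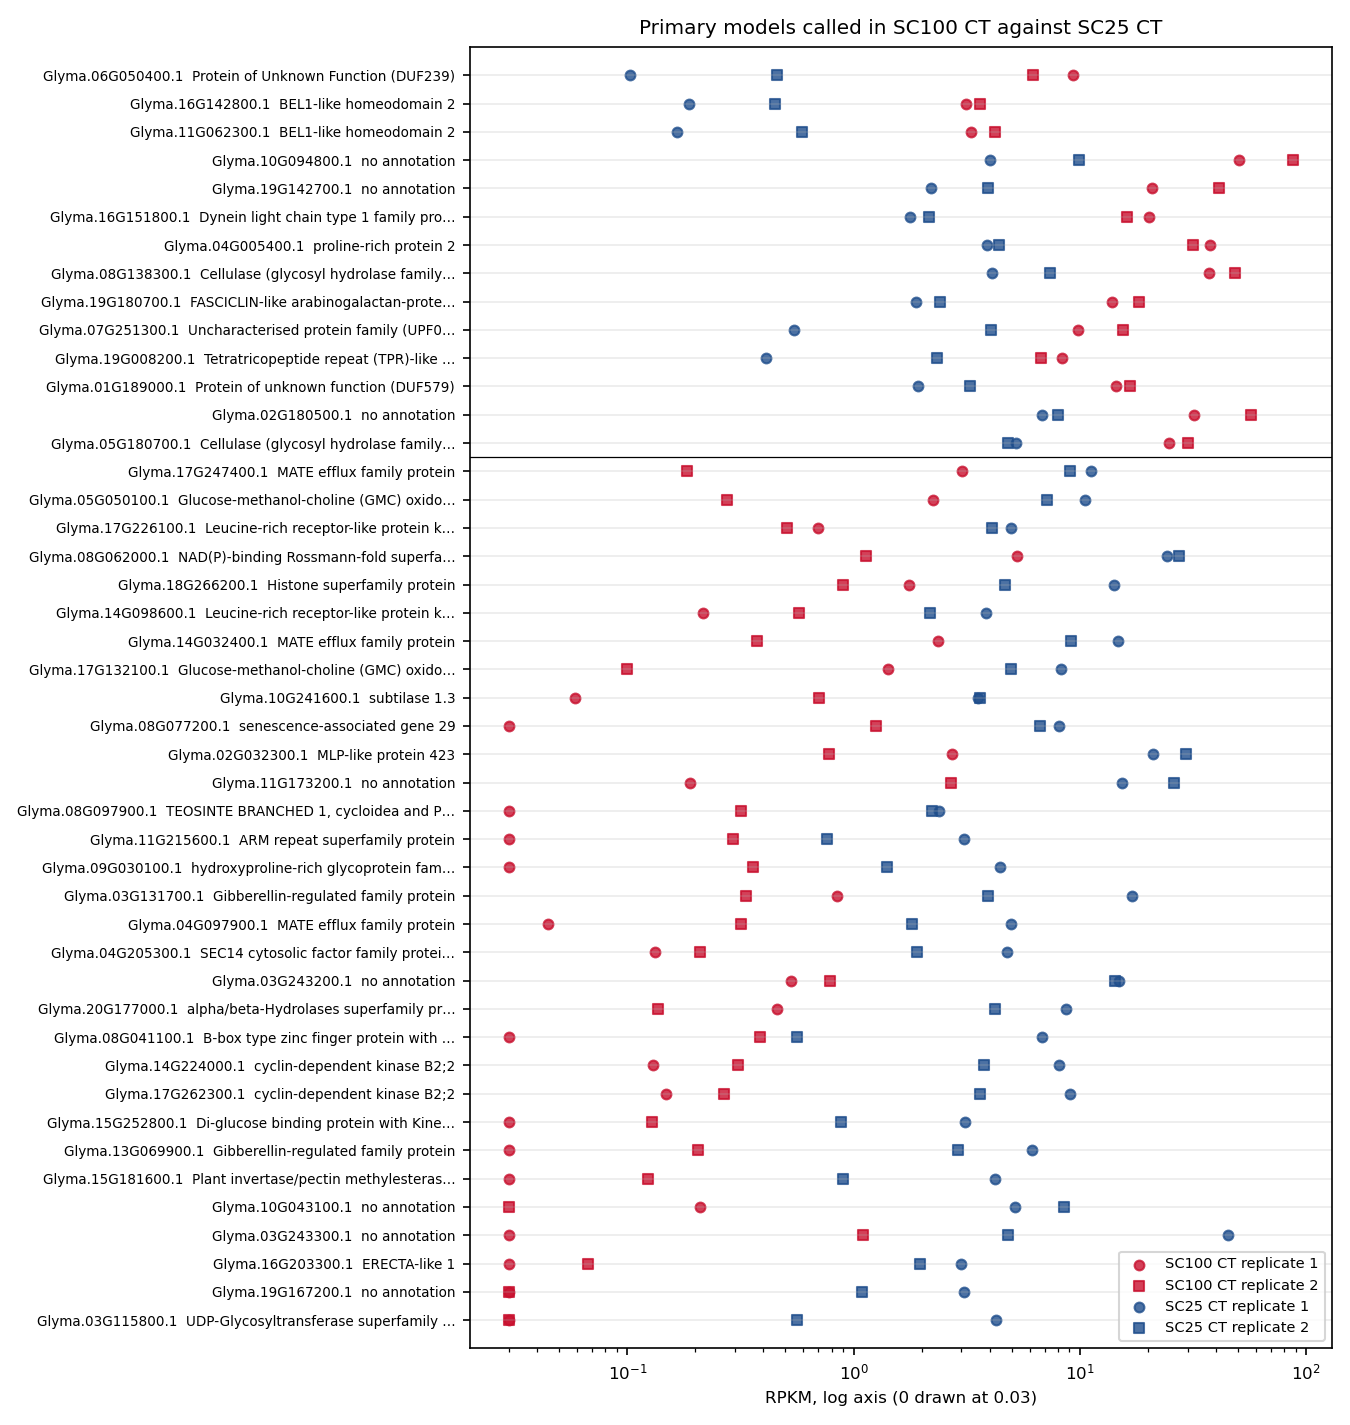
RPKM (x axis, log scale) of the 45 called primary models (y axis, ordered by log2 fold change) in the 2 SC100 libraries (red) and the 2 SC25 libraries (blue), circles for replicate 1 and squares for replicate 2. The 14 models above the line were higher at SC100 and the 31 below it were lower, with no overlap of the stages in any of them, and many of the lower models lay near 0 at SC100.

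Some of the models that rose carry annotations of wall proteins or enzymes, most of which are in none of the lists. Glyma.19G180700.1 is annotated as FASCICLIN-like arabinogalactan-protein 11, whose Arabidopsis counterpart belongs to stems with thickened walls. It had 13.9 and 18.2 RPKM at SC100, against 1.89 and 2.41 RPKM at SC25, with a log2 fold change of 2.91 ± 0.67 (SE) and an adjusted p of 0.0184. Glyma.01G189000.1 carries a DUF579 polysaccharide biosynthesis domain, found in Arabidopsis proteins that act in xylan formation. It had 14.5 and 16.7 RPKM at SC100, against 1.93 and 3.27 RPKM at SC25 (log2 fold change 2.68 ± 0.63). The SC100 libraries were close to each other for both genes and stood clear of the SC25 libraries.

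A pair of cellulase-domain models of glycosyl hydrolase family 5 also rose, and these enzymes cut beta-linked glucans or mannans. Glyma.08G138300.1 had 37.1 and 48.6 RPKM at SC100, against 4.08 and 7.40 RPKM at SC25 (log2 fold change 3.01 ± 0.58, adjusted p 0.00121). Glyma.05G180700.1 had 24.9 and 30.0 RPKM at SC100, against 5.22 and 4.83 RPKM at SC25 (log2 fold change 2.40 ± 0.58, adjusted p 0.0335). Reads that fit both were counted at both, so that they are not independent. Glyma.04G005400.1, a proline-rich protein with a pollen Ole e I domain, a class of secreted wall proteins, had 37.7 and 31.7 RPKM at SC100, against 3.88 and 4.41 RPKM at SC25 (log2 fold change 3.07 ± 0.59, adjusted p 0.00121).

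The transcription factors that rose were BEL1-like homeodomain 2 genes, whose Arabidopsis counterpart limits leaf margin growth and acts on pectin of seed coat mucilage. Glyma.16G142800.1 had 3.14 and 3.64 RPKM at SC100, against 0.188 and 0.449 RPKM at SC25 (log2 fold change 3.58 ± 0.80). Glyma.11G062300.1 had 3.29 and 4.21 RPKM at SC100, against 0.166 and 0.592 RPKM at SC25 (log2 fold change 3.57 ± 0.79). Levels were low in both, yet each SC100 library was above both SC25 libraries. Reads that fit both models were counted at both, so that they may not be independent. They were the only called members of the YABBY and homeodomain list, of which 278 of 499 matched models were tested and none was called lower. Of its 106 members at 1 RPKM or more, 7 (6.6%) were higher and 13 (12.3%) lower at an unadjusted p under 0.05. The shares of all such models were 1.34% and 5.97%. The median of the 106 was -0.19, with 49 above 0 and 57 below.

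The remaining models that rose are less well described. Glyma.06G050400.1, a DUF239 protein, had the largest log2 fold change of the 14, with 9.38 and 6.20 RPKM at SC100, against 0.103 and 0.458 RPKM at SC25 (log2 fold change 5.12 ± 0.99, adjusted p 0.00119). Glyma.16G151800.1, a dynein light chain type 1 protein, a small subunit of motor complexes, had 20.3 and 16.2 RPKM at SC100, against 1.78 and 2.16 RPKM at SC25 (log2 fold change 3.22 ± 0.69). Glyma.07G251300.1, of the UPF0497 family of membrane proteins, had 9.83 and 15.6 RPKM at SC100, against 0.543 and 4.07 RPKM at SC25, so that the SC25 libraries differed strongly from each other. Glyma.19G008200.1, a tetratricopeptide repeat protein, had 8.37 and 6.72 RPKM at SC100, against 0.409 and 2.34 RPKM at SC25. The models with no annotation, Glyma.10G094800.1, Glyma.19G142700.1 and Glyma.02G180500.1, reached higher levels at SC100 than the others of this paragraph. Glyma.10G094800.1 had 50.8 and 87.5 RPKM at SC100, against 4.02 and 9.89 RPKM at SC25, and its adjusted p of 0.000278 was the lowest of the 45.

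Several models of wall formation did not overlap between the stages without passing the threshold. They were chosen after their values were seen. Both models annotated as cellulose synthase A4, a subunit of the secondary wall complex in Arabidopsis, were among them. Glyma.09G051100.1 had 16.4 and 23.8 RPKM at SC100, against 5.71 and 3.61 RPKM at SC25 (log2 fold change 1.98 ± 0.56, adjusted p 0.169). Glyma.15G157100.1 had 11.4 and 17.6 RPKM at SC100, against 4.14 and 2.26 RPKM at SC25 (log2 fold change 2.03 ± 0.57, adjusted p 0.153). The stages did not overlap in either. Without both seed coat replicates 1 their log2 fold changes were 3.24 and 3.48.

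Other wall synthesis models, also chosen after their values were seen, had no overlap either. Glyma.06G225500.1, a cellulose synthase family protein, had 18.6 and 18.3 RPKM at SC100, against 7.12 and 2.97 RPKM at SC25, with an adjusted p of 0.457. Glyma.04G153700.1 of the same family had 11.6 and 11.9 RPKM at SC100, against 3.82 and 2.07 RPKM at SC25, with an adjusted p of 0.287. A second FASCICLIN-like arabinogalactan-protein 11, Glyma.03G179900.1, had 8.34 and 11 RPKM at SC100, against 1.59 and 0.588 RPKM at SC25, with an adjusted p of 0.0974. Chitinase-like protein 2 is needed for cellulose deposition in Arabidopsis, and its model Glyma.09G038500.1 had 34.6 and 39.2 RPKM at SC100, against 8.19 and 7.12 RPKM at SC25, with an adjusted p of 0.0677. Its paralog Glyma.15G143600.1 had 24.9 and 34.9 RPKM at SC100, against 6.70 and 6.91 RPKM at SC25, with an adjusted p of 0.108. In each of these models both SC100 libraries lay above both SC25 libraries.

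Of the list of cellulose synthases, COBRA and fasciclin-like proteins, 147 of 264 matched models were tested, of which 1 rose and none fell. The 69 members with a mean of at least 1 RPKM had a median log2 fold change of 0.34, against -0.255 over all such models, and 15.9% of them were higher and 5.80% lower at an unadjusted p under 0.05, against 1.34% and 5.97% of all such models. In footprints their median was 0.35. The member with the highest mean level was Glyma.14G005300.1, FASCICLIN-like arabinoogalactan 7, with 90.0 and 85.2 RPKM at SC100, against 21.3 and 51.2 RPKM at SC25 (log2 fold change 1.44, adjusted p 0.684). Members of this list thus lay on both sides of 0, 36 above and 33 below.

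Pectin and xyloglucan genes had members on both sides. Of the pectin list, 118 models were tested, none rose and 1 fell, an invertase and pectin methylesterase inhibitor, Glyma.15G181600.1, with 0 and 0.123 RPKM at SC100, against 4.21 and 0.903 RPKM at SC25. DESeq2 called 1 member higher and none lower. The 61 members with at least 1 RPKM had a median of -0.68, and of -0.09 without both seed coat replicates 1, and 10 of them (16.4%) were lower and 3 (4.92%) higher at an unadjusted p under 0.05, against 5.97% and 1.34% of all such models. The most abundant member at both stages together was a pectin acetylesterase, which removes acetyl groups from pectin. This model, Glyma.16G107500.1, had 307 and 460 RPKM at SC100, against 73.3 and 93.5 RPKM at SC25 (log2 fold change 2.23 ± 0.64, adjusted p 0.176), and at most 0.991 RPKM in any cotyledon library. The stages did not overlap. The related Glyma.16G075700.1 and Glyma.16G075800.1 had 39.2 and 70.4 RPKM and 25.5 and 42.9 RPKM at SC100, against 13 and 26.7 RPKM and 7.19 and 15.8 RPKM at SC25. These, like the next gene, were chosen after their values were seen. Xyloglucan endotransglycosylase 6, Glyma.13G103100.1, a loosener of wall polymers, had 26.2 and 41.3 RPKM at SC100, against 3.12 and 13.4 RPKM at SC25 and missed the threshold with an adjusted p of 0.0527. The 29 members of its list at 1 RPKM or more had a median of -0.34, with none of 52 tested called by edgeR and 0 by DESeq2. Of the 29, 1 (3.45%) was higher and 1 (3.45%) lower at an unadjusted p under 0.05, against 1.34% and 5.97% of all such models.

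**Figure D3:**
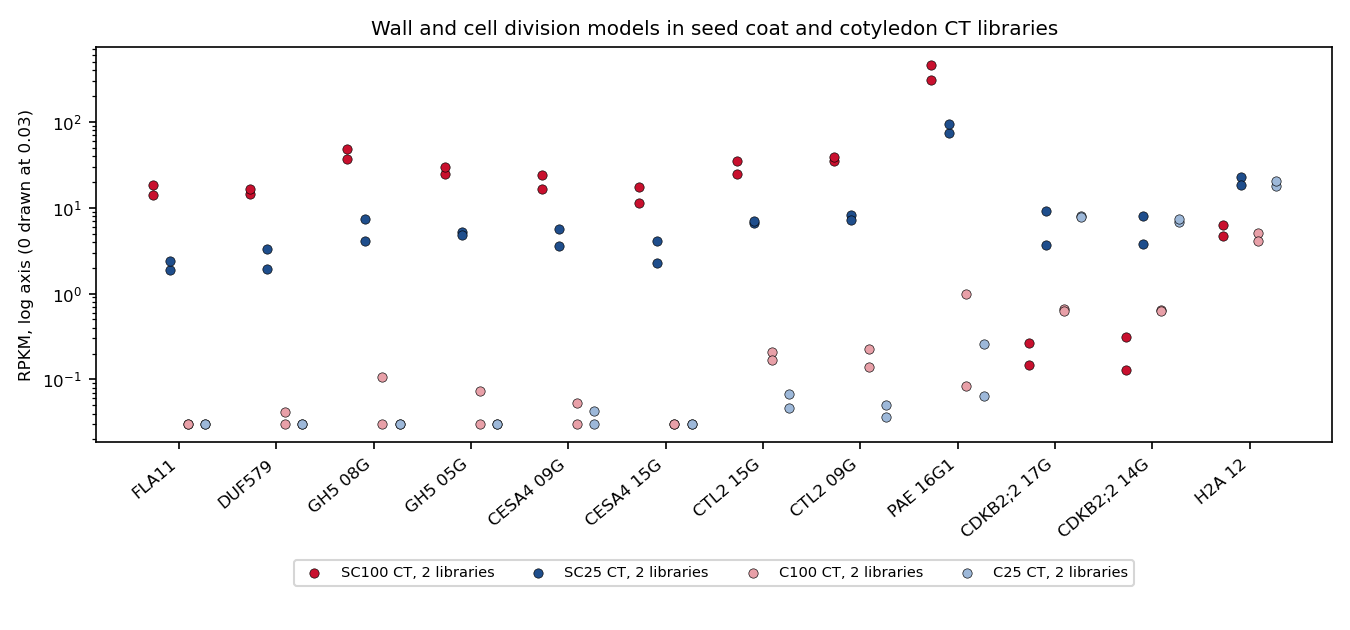
RPKM (y axis, log scale) of wall and cell division models in CT libraries of SC100, SC25, C100 and C25, with a point for each of the 2 libraries of a group. FLA11, fasciclin-like 11; GH5, cellulase domain; CESA4, cellulose synthase A4; CTL2, chitinase-like protein 2; PAE 16G1, Glyma.16G107500.1; H2A 12, Glyma.13G333900.1; the numbers before G give the chromosome part of the model name. The 9 wall models lie above 10 RPKM at SC100 and at or below 1 RPKM in cotyledons. The CDKB2;2 and H2A models lie lower at C100 than at C25 too, without a call in cotyledons. In the seed coat FLA11, DUF579 and the GH5 and CDKB2;2 models were called. The CESA4, CTL2, PAE 16G1 and H2A 12 models were not called there.

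Cell division genes were among those that fell. Cyclin-dependent kinase B2;2 drives entry into mitosis in Arabidopsis. Glyma.17G262300.1 of this annotation had 0.149 and 0.267 RPKM at SC100, against 9.10 and 3.64 RPKM at SC25 (log2 fold change -5.12 ± 1.02, adjusted p 0.00156). Glyma.14G224000.1 had 0.130 and 0.310 RPKM at SC100, against 8.10 and 3.79 RPKM at SC25 (log2 fold change -4.92 ± 0.98, adjusted p 0.00155). These 2 kinases had only 5 and 6 counts in the SC100 libraries together. Reads that fit both were counted at both, so that they may not be independent. A kinesin with a di-glucose binding domain, Glyma.15G252800.1, had 0 and 0.129 RPKM at SC100, against 3.10 and 0.883 RPKM at SC25. These were the 3 called members of the cyclin and mitotic list, of which 143 models were tested and none rose. Of its 29 members at 1 RPKM or more, 24.1% were lower at an unadjusted p under 0.05 and none was higher, against 5.97% and 1.34% of all such models, with a median of -0.63 and 10 of 29 above 0. DESeq2 also called 3 lower.

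Histones, which package newly made DNA, had the lowest median of the lists with at least 10 members at 1 RPKM. Of 79 tested histone models 1 fell and none rose, and DESeq2 called 0. The called model, Glyma.18G266200.1, had 1.76 and 0.897 RPKM at SC100, against 14.2 and 4.67 RPKM at SC25 (log2 fold change -3.04 ± 0.75, adjusted p 0.0473). The 72 histone models at 1 RPKM or more had a median log2 fold change of -1.49, with 66 of 72 below 0, against 61.3% of all such models, and 36.1% of them were lower at an unadjusted p under 0.05, against 5.97% of all such models. Their summed level was 460 and 327 RPKM at SC100 and 761 and 818 RPKM at SC25. The median was -1.37 without both seed coat replicates 1 and -1.23 in footprints, and the histone median in cotyledons between C100 and C25 was -1.40. Histone H2A 12, Glyma.13G333900.1, had 6.25 and 4.70 RPKM at SC100, against 22.8 and 18.2 RPKM at SC25, and Glyma.13G333800.1 had 7.30 and 6.86 RPKM at SC100, against 25.4 and 24.7 RPKM at SC25. Neither passed the adjusted test, and both were chosen after their values were seen. Histone genes are near copies of each other, and their reads can count at several of them. Of 55 tested DNA replication models none was called by edgeR or DESeq2. Among the 13 at 1 RPKM or more, 1 (7.69%) was higher and 3 (23.1%) lower at an unadjusted p under 0.05. The shares of all such models were 1.34% and 5.97%.

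Ribosomal protein genes lay lower at SC100 as a list, without a single call. Of 580 tested, edgeR and DESeq2 called 0, with 1 higher and 62 lower at an unadjusted p under 0.05 among the 425 at 1 RPKM or more, which is 0.235% and 14.6%, against 1.34% and 5.97% of all such models. Their median log2 fold change was -0.78, with 353 of 425 below 0, in footprints it was -0.56, against 0.055 for all such models, and without both seed coat replicates 1 it was -0.31, against -0.005.

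Signalling genes of growth were also among those that fell. Gibberellin-regulated peptides are small cysteine-rich secreted proteins that respond to the growth hormone gibberellin. Glyma.03G131700.1 had 0.845 and 0.336 RPKM at SC100, against 17 and 3.93 RPKM at SC25 (log2 fold change -4.37 ± 0.83, adjusted p 0.00102). Glyma.13G069900.1 had 0 and 0.205 RPKM at SC100, against 6.18 and 2.89 RPKM at SC25. Of the 39 tested gibberellin models 2 fell and none rose, but DESeq2 called 1 higher and 1 lower. Among the 33 at 1 RPKM or more, 1 (3.03%) was higher and 7 (21.2%) lower at an unadjusted p under 0.05. The shares of all such models were 1.34% and 5.97%. The median of the 33 was -0.56, with 9 above 0 and 24 below. The member with the highest mean level, Glyma.13G039300.1, had 74.8 and 49.0 RPKM at SC100, against 99.2 and 126 RPKM at SC25 and was not called.

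Of kinases of the receptor type, 3 models fell, and no list of them was tested. ERECTA-like 1, Glyma.16G203300.1, a receptor of peptide signals that controls cell proliferation and stomatal spacing in Arabidopsis, had 0 and 0.0669 RPKM at SC100, against 3.00 and 1.96 RPKM at SC25, with an adjusted p of 0.000595. Leucine-rich repeat kinase Glyma.17G226100.1 had 0.697 and 0.509 RPKM at SC100, against 4.96 and 4.11 RPKM at SC25 (log2 fold change -2.96 ± 0.67). Its paralog Glyma.14G098600.1 had 0.217 and 0.574 RPKM at SC100, against 3.87 and 2.18 RPKM at SC25. Factors of transcription that fell were TCP2, Glyma.08G097900.1, of a family with some members that restrain cell proliferation, and a B-box zinc finger protein, Glyma.08G041100.1. TCP2 had 0 and 0.317 RPKM at SC100, against 2.38 and 2.23 RPKM at SC25. The B-box model had 0 and 0.385 RPKM at SC100, against 6.80 and 0.564 RPKM at SC25. The libraries of the last gene nearly met, at 0.385 RPKM in SC100 replicate 2 and 0.564 RPKM in SC25 replicate 2.

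MATE efflux proteins export small molecules, flavonoids among them, and 3 models of this annotation, which is in none of the lists, fell. Glyma.14G032400.1 had 2.37 and 0.376 RPKM at SC100, against 14.8 and 9.17 RPKM at SC25 (log2 fold change -3.21 ± 0.66, adjusted p 0.00259). Glyma.17G247400.1 had 3.03 and 0.184 RPKM at SC100, against 11.2 and 9.09 RPKM at SC25, and Glyma.04G097900.1 had 0.0445 and 0.318 RPKM at SC100, against 4.97 and 1.81 RPKM at SC25. All 3 stood lower in each SC100 library. Senescence-associated gene 29, Glyma.08G077200.1, encodes a sugar efflux transporter of the SWEET family. It had 0 and 1.26 RPKM at SC100, against 8.10 and 6.69 RPKM at SC25 (log2 fold change -3.67 ± 0.91, adjusted p 0.0473), the only call of 46 tested in its list, with 0 by DESeq2. Another model of that annotation and the most abundant of the SWEET and sucrose transporter list, Glyma.08G183500.1, had 56.5 and 65.6 RPKM at SC100, against 64.6 and 57.8 RPKM at SC25, which overlapped.

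Among enzymes, Glyma.08G062000.1, a Rossmann-fold epimerase or dehydratase, had 5.28 and 1.13 RPKM at SC100, against 24.3 and 27.6 RPKM at SC25 (log2 fold change -2.98 ± 0.61, adjusted p 0.00264). An MLP-like protein, Glyma.02G032300.1, of the Bet v I family of small ligand-binding proteins, had 2.72 and 0.779 RPKM at SC100, against 21.1 and 29.6 RPKM at SC25 (log2 fold change -3.77 ± 0.69, adjusted p 0.000683). GMC oxidoreductases Glyma.05G050100.1 and Glyma.17G132100.1 had 2.24 and 0.276 RPKM and 1.42 and 0.0993 RPKM at SC100, against 10.5 and 7.14 RPKM and 8.26 and 4.99 RPKM at SC25. Subtilase 1.3, Glyma.10G241600.1, a secreted serine protease, had 0.0589 and 0.701 RPKM at SC100, against 3.54 and 3.63 RPKM at SC25 (log2 fold change -3.29 ± 0.79) and was the only call among 79 tested subtilases. The UDP-glycosyltransferase Glyma.03G115800.1 had no count in either SC100 library, against 4.26 and 0.561 RPKM at SC25.

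The other models that fell were an alpha/beta-hydrolase (Glyma.20G177000.1), a SEC14 lipid transfer protein (Glyma.04G205300.1), an ARM repeat protein (Glyma.11G215600.1), a hydroxyproline-rich glycoprotein (Glyma.09G030100.1) and unannotated models. Of the unannotated ones, Glyma.03G243200.1 had 0.531 and 0.790 RPKM at SC100, against 14.9 and 14.3 RPKM at SC25. Glyma.03G243300.1 had 0 and 1.10 RPKM at SC100, against 45.2 and 4.84 RPKM at SC25, and Glyma.11G173200.1 had 0.189 and 2.71 RPKM at SC100, against 15.4 and 26.2 RPKM at SC25. Of the 31 models that fell, 23 had means under 10 RPKM at both stages, 2 had no count at SC100 and 5 had 1 to 3 counts there. No fold change is given for the last 5, since a fitted value at so few counts depends on the prior count.

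Flavonoid genes named for their levels were lower at SC100 without passing the adjusted test. They were named after their values were seen, apart from flavanone 3-hydroxylase. Flavanone 3-hydroxylase, an early enzyme of the pathway to proanthocyanidins, is the flavonoid list's most abundant model. This model, Glyma.02G048400.1, had 59.9 and 37.7 RPKM at SC100, against 157 and 115 RPKM at SC25 (log2 fold change -1.56 ± 0.58). Leucoanthocyanidin dioxygenase, Glyma.11G027700.1, had 16.6 and 9.43 RPKM at SC100, against 45.1 and 46.4 RPKM at SC25 (log2 fold change -1.82 ± 0.56). A chalcone-flavanone isomerase family protein, Glyma.06G143000.1, had 3.71 and 1.41 RPKM at SC100, against 16.3 and 10.8 RPKM at SC25, with an adjusted p of 0.0955. O-methyltransferase 1, Glyma.20G176100.1, an enzyme of phenylpropanoid metabolism, had 21.9 and 3.23 RPKM at SC100, against 65.7 and 45.2 RPKM at SC25, with an adjusted p of 0.0631. Over the list, 56 models were tested and edgeR and DESeq2 called 0. Among its 44 members at 1 RPKM or more, 1 (2.27%) was higher and 8 (18.2%) lower at an unadjusted p under 0.05. The shares of all such models were 1.34% and 5.97%. The list's median was -0.19 in RNA, against -0.255 over all such models, and 0.78 in footprints, against 0.055. The genes named here therefore do not stand for the list. Of 47 tested monolignol models edgeR and DESeq2 called 0. Among the 30 at 1 RPKM or more, 2 (6.67%) were higher and 9 (30.0%) lower at an unadjusted p under 0.05, against 1.34% and 5.97%. The monolignol median of -0.45 was 0.26 without both seed coat replicates 1.

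Peroxidases, secreted enzymes of the seed coat that use hydrogen peroxide, had members on both sides. Of 55 tested, edgeR and DESeq2 called 0, with 2 higher and 3 lower at an unadjusted p under 0.05 among 25 at 1 RPKM or more. As shares of the 25, both exceeded those of all such models, which were 1.34% higher and 5.97% lower. Peroxidase 2, Glyma.09G022300.1, had 146 and 185 RPKM at SC100, against 54.6 and 69.3 RPKM at SC25 (log2 fold change 1.45 ± 0.57, adjusted p 0.721). Glyma.15G128600.1 had 29.3 and 39.5 RPKM at SC100, against 7.40 and 13.8 RPKM at SC25 (log2 fold change 1.81 ± 0.61, adjusted p 0.513). Both were chosen after their values were seen, the stages did not overlap in either, and both were below 1 RPKM in every cotyledon library. Further uncalled models with no overlap, also chosen after their values were seen, were the aquaporin plasma membrane intrinsic protein 2;4, Glyma.12G075400.1, with 3.87 and 2.75 RPKM at SC100, against 20.6 and 11.3 RPKM at SC25, beta-galactosidase 5, Glyma.14G070600.1, with 4.41 and 4.62 RPKM at SC100, against 19.9 and 20.5 RPKM at SC25, and the epidermal protein protodermal factor 1, Glyma.02G287400.1, with 2.70 and 4.46 RPKM at SC100, against 19.7 and 12.9 RPKM at SC25.

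Of the 46 lists, 9 had a called member and 37 had none, and 12 of the 45 called models were in a list. Some lists had medians near 0, against -0.255 over all models at 1 RPKM or more. Light-harvesting and photosystem genes, amino acid and UmamiT transporters, auxin genes, and MYB factors had medians of 0.04, -0.09, 0.10 and 0.12. Of the 42 MYB factors at 1 RPKM or more, 4 (9.52%) were higher and 2 (4.76%) lower at an unadjusted p under 0.05. The shares of all such models were 1.34% and 5.97%. Germins and cupins, oleosins and the xylem markers, which include xylem bark cysteine peptidases, moved with the storage protein sums. Their medians were 0.36, 0.59 and 0.50 in the 4 libraries and 3.16, 2.52 and 4.59 without both seed coat replicates 1, where only SC25 replicate 2 with its low storage protein sum was left at the early stage. Xylem bark cysteine peptidase 3, Glyma.08G116300.1, had 42.4 and 31 RPKM at SC100, against 32.8 and 1.99 RPKM at SC25, and 1550 and 1180 RPKM in C100 and 242 and 291 RPKM in C25 cotyledons. The part of embryo RNA in these values was not tested.

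**Figure D4:**
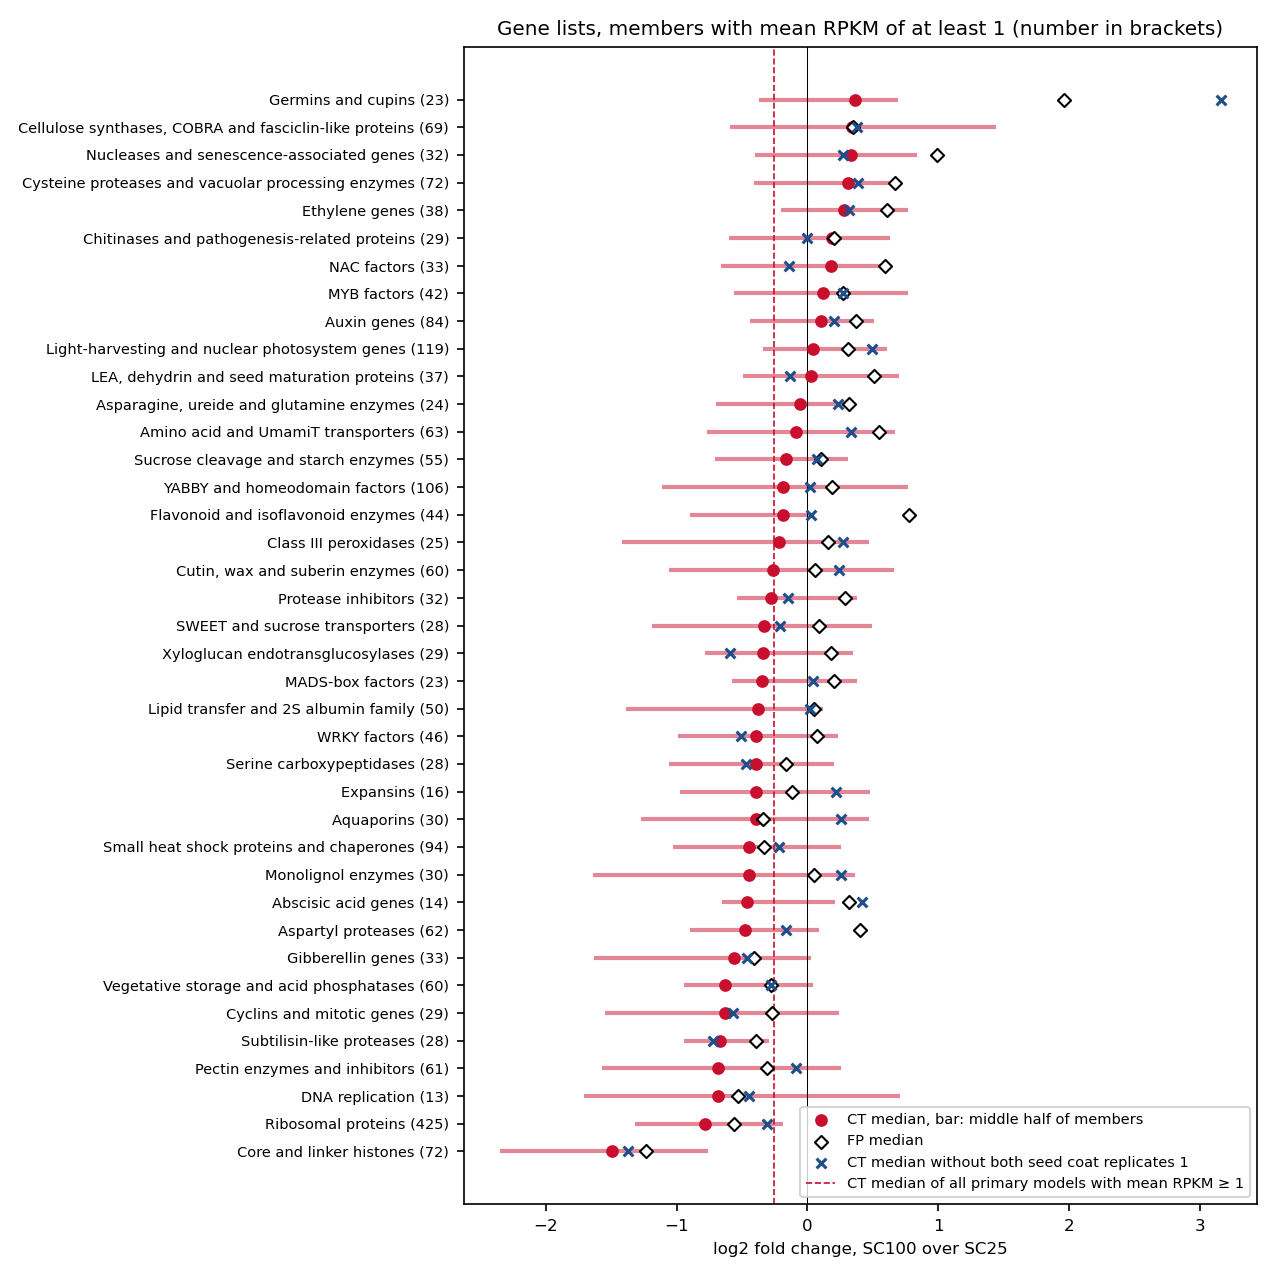
Median log2 fold change of SC100 over SC25 (x axis) for each gene list with at least 10 members at a mean of 1 RPKM or more (y axis, number of members in brackets), in CT (red, bar for the interquartile range of members), in FP (diamonds) and in CT without both seed coat replicates 1 (crosses). The dashed line is the CT median of all such primary models at -0.255, and histones lie farthest below it by all 3 measures.

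Footprint libraries gave the same direction for the called models. No model was called in SC100 FP against SC25 FP by edgeR (43450 tested, smallest adjusted p 0.102), with 2014 primary models at an unadjusted p under 0.05, and DESeq2 called 68 primary models. All 14 models that rose in CT were above 0 in FP, against 51.5% of all 23812 primary models tested, and all 14 had an unadjusted p under 0.05, against 4.31% of all, with FP log2 fold changes of 2.05 to 3.83. Of the 31 that fell, 30 were tested in FP and all 30 were below 0, against 48.5% of all, 25 of them at an unadjusted p under 0.05, against 4.14% of all. The 5 that did not reach it were Glyma.08G077200.1, Glyma.11G215600.1, Glyma.09G030100.1, Glyma.08G041100.1 and Glyma.03G243300.1. FASCICLIN-like arabinogalactan-protein 11, Glyma.19G180700.1, had 12.8 and 6.40 FP RPKM at SC100, against 2.71 and 0.733 FP RPKM at SC25. Cyclin-dependent kinase B2;2, Glyma.17G262300.1, had 0.204 and 0.0684 FP RPKM at SC100, against 3.74 and 0.987 FP RPKM at SC25. CT and FP libraries are separate but came from the same powdered tissue, so that they do not add biological repeats.

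**Figure D5:**
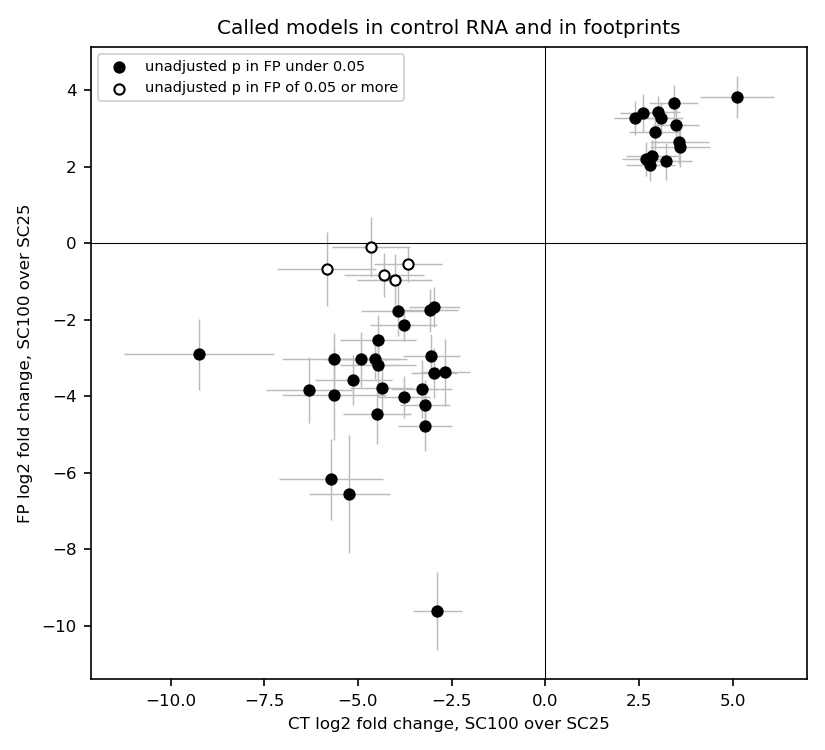
Log2 fold change of SC100 over SC25 in CT (x axis) and in FP (y axis) for the 44 called models that were tested in both, with standard errors as bars, filled where the unadjusted p in FP was under 0.05. The 14 models that rose lie at 2.05 to 3.83 in FP and the 30 that fell lie below 0. The FP value of -9.63 belongs to a model with no FP count at SC100 and depends on the prior count.

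Most models that rose were close to absent from cotyledons. Of the 14, 12 were below 1 RPKM in all 4 cotyledon CT libraries, against 25.6% of the 14452 primary models at 1 RPKM or more in the seed coat, and the highest cotyledon value of any of the 14 was 2.55 RPKM. Of the 31 that fell, 19 were below 1 RPKM there. FASCICLIN-like arabinogalactan-protein 11 had no count in any cotyledon library, and both cellulose synthase A4 models were at most 0.0528 RPKM. The division genes were present in cotyledons, where none of the 31 models that fell in the seed coat was called lower in C100 than in C25. Glyma.17G262300.1 had 0.657 and 0.620 RPKM in C100, against 7.91 and 7.76 RPKM in C25. Histone H2A 12, Glyma.13G333900.1, had 5.13 and 4.06 RPKM in C100, against 18 and 20.2 RPKM in C25.

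The change from early to mid stage was then tested for a difference between tissues, as the seed coat change minus the cotyledon change in 1 fit of 8 CT libraries over 67278 models. This gave 11 primary models with a higher and 32 with a lower change in the seed coat, 0.029% and 0.0844% of those tested. It gave no call without SC100 replicate 1, and 0 higher and 3 lower without C100 replicate 1, and 5 higher and 15 lower without C25 replicate 2, while the higher and lower counts were 33 and 181 without SC25 replicate 1, 40 and 302 without SC25 replicate 2 and 25 and 388 without SC100 replicate 2. Of the 45 called seed coat models only the BEL1-like homeodomain 2 model Glyma.16G142800.1 was among them, with a difference of 4.24 ± 0.62 (adjusted p 0.0185). It had 0.931 and 0.649 RPKM in C100, against 2.36 and 2.54 RPKM in C25. Its copy Glyma.11G062300.1 was not called in this test. Alcohol dehydrogenase 1, Glyma.13G035200.1, an enzyme of fermentation, had 56.8 and 41.2 RPKM at SC100 and 83.2 and 90.8 RPKM at SC25, and 181 and 133 RPKM in C100 and 24.7 and 30.7 RPKM in C25 (difference -4.32 ± 0.55, adjusted p 0.00759). The BURP domain model Glyma.12G217300.1 had 46.2 and 50.5 RPKM at SC100 and 32.4 and 39.8 RPKM at SC25, and 50.8 and 39.9 RPKM in C100 and 7.23 and 10.1 RPKM in C25 (difference -2.93 ± 0.48, adjusted p 0.0348). Both genes were higher in C100 than in C25 cotyledons. In the seed coat alcohol dehydrogenase 1 was lower at SC100 and the BURP domain model higher, neither of them called there. Several of the 32 models with a lower change were annotated as lipoxygenase 1. Reads that fit several models were counted at each, so that the 32 may not be independent.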

How the data were processed

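Seed coats and cotyledons of Williams soybean were measured by sequencing of control RNA fragments (CT) and ribosome footprints (FP). The authors trimmed adapters, aligned reads to the cDNA models of assembly Wm82.a2 with Bowtie version 1, allowing 0 mismatches and up to 25 alignments, took out ribosomal DNA models and deposited a table per library with the alignment count of each of 88515 models, without normalization and with replicates kept apart. Reads that fit several models were counted at each. Use of strand is not given in the sources used here. Annotations are those in the count tables.

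RPKM was computed from the count, cDNA length and library total, and differed from the TMM scale by factors of 0.743 to 1.394. Models with at least 10 summed counts were tested with edgeR 4.0.16 (TMM, quasi-likelihood, two-sided, Benjamini-Hochberg, 0.05) in R 4.3.3, in place of the authors' DESeq. The common dispersion was 0.675 in seed coat CT, 0.153 in FP and 0.307 in the fit of both tissues. Standard errors were derived from the F statistic and so carry the spread shared across models. Alternatives were DESeq2 1.42.0, other scalings, filters and sample sets, a replicate block, and each library left out. The scripts were tested on simulated data in which 200 models were changed. The simulated dispersion was lower than that of seed coat CT. The simulation therefore does not show how calls fare at the real spread. Summaries used Python 3.11.15 with pandas 2.3.3, numpy 2.4.6, scipy 1.17.1 and matplotlib 3.10.9.

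Genes named were called annotated primary models with no overlap of the stages and at least 10 RPKM at the higher stage, up to 12 each way and 2 per annotation, called members of each list with at least 5 RPKM and its most abundant member, and then the 6 largest and 6 smallest tissue differences among annotated models at 10 RPKM. Other called models and those so marked were named after their values were seen. The members and the 46 lists were chosen with earlier results of these data known. The lists are word searches of the annotations. The FP tables of cotyledons were not used here. A reference gene table matched no model name, so no coordinates or sequences are given.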

Additional observations from a re-analysis of the deposited data

Results flagged for a closer look

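The mid minus early change differed between seed coat and cotyledon, by the test of the difference itself, in these named models, each given as the seed coat log2 change minus the cotyledon log2 change. Values above 0 were 4.24 for BEL1-like homeodomain 2 (Glyma.16G142800.1), 5.22 and 6.17 for natural resistance-associated macrophage protein 3 (Glyma.05G101700.1 and Glyma.17G165200.1), metal transporters, 7.16 for purple acid phosphatase 17 (Glyma.08G056400.1), 7.31 and 8.36 for delta tonoplast integral protein (Glyma.19G035400.1 and Glyma.15G018100.1), vacuolar channels, and 7.98 for a UDP-glycosyltransferase (Glyma.07G116500.1). Apart from the first, these models were at 9.88 RPKM or more in both C25 libraries and at 2.04 RPKM or less in the other groups. Those of purple acid phosphatase, tonoplast integral protein and glycosyltransferase rest on 1 to 3 counts in the SC25 libraries together and depend on the prior count. Glyma.17G165200.1 had 1.25 and 1.39 RPKM at SC100 and 2.04 and 1.03 RPKM at SC25, and 0.354 and 0.250 RPKM in C100 and 55.7 and 56.9 RPKM in C25. Values below 0 were -4.32 for alcohol dehydrogenase 1 (Glyma.13G035200.1), -4.44 for lipoxygenase 1 (Glyma.07G034900.1), -4.46 for ERD4 (Glyma.15G091600.1), -6.13 for an aspartyl protease (Glyma.03G239700.1), -7.16 for a small GTP-binding protein (Glyma.04G168600.1) and -7.32 for a GRAM domain protein (Glyma.09G164100.1). The GTP-binding model Glyma.04G168600.1 had 18.6 and 25.7 RPKM at SC100 and 54.8 and 18.6 RPKM at SC25, and 433 and 385 RPKM in C100 and 13.3 and 7.46 RPKM in C25. Seed coat storage protein sums differed between the SC25 libraries, at 398 and 22.6 RPKM. Whether cotyledon RNA made this difference, and its part in the values above, was not tested.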

How the results depend on the processing

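The main counts were 14 primary models higher and 31 lower in SC100 CT against SC25 CT, 0 and 0 in FP, and 11 and 32 for the difference between tissues. In CT the count lower was 20 with library totals, and the counts were 0 and 0 with at least 10 counts in every library, 15 and 14 with DESeq2, 35 and 15 with upper-quartile scaling, 8 and 16 with no count filter, 19 and 21 with all CT libraries in 1 fit, and with the replicate block 28 and 28. Added after seeing the data, the fit of all CT libraries without both seed coat replicates 1 gave 280 and 279, and without SC100 replicate 1 it gave 0 and 0. Leaving out 1 library gave 0 to 46 higher and 0 to 16 lower. In FP library totals gave 2 lower, DESeq2 (added after seeing the data) gave 44 and 24, the replicate block 266 and 236, and leaving out 1 library 0 to 1188 and 0 to 518, the highest without SC25 FP replicate 2. For the tissue difference DESeq2 gave 31 and 158, library totals 28 and 14, the replicate block within tissue 5 and 3, and leaving out 1 library 0 to 40 and 0 to 388. The replicate numbers are shared by label only. Same-numbered libraries deviated together with a correlation of 0.125 in CT and 0.499 in FP, over 2 numbers. Of 128 models named or screened by the naming rule, 31 turned the sign of their CT log2 fold change under at least 1 alternative, none of them called (smallest adjusted p 0.665). Of those with a printed CT fold change or chosen for their values only Glyma.08G116300.1 did, which leaving out 1 library moved between -0.19 (without SC25 CT replicate 2) and 4.64 (without SC25 CT replicate 1). Depth limits the lower models, since 0.3 RPKM is near 3 counts in 3 of the 4 libraries. The causes were not tested.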

Other observations

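The most abundant annotated seed coat members of several lists were not called. Subtilisin-like protease Glyma.06G022600.1 had 451 and 329 RPKM at SC100, against 535 and 655 RPKM at SC25, and lipid transfer protein 1, Glyma.01G132500.1, had 630 and 418 RPKM at SC100, against 553 and 373 RPKM at SC25. The vacuolar cysteine protease senescence-associated gene 12, Glyma.06G275300.1, had 242 and 241 RPKM at SC100, against 140 and 185 RPKM at SC25 (log2 fold change 0.61 ± 0.59). The BURP domain model Glyma.07G176700.1 had 161 and 110 RPKM at SC100, against 270 and 251 RPKM at SC25 (log2 fold change -0.98 ± 0.60). Laccase Glyma.16G158400.1, of a family that polymerises lignin, had 46.9 and 45.7 RPKM at SC100, against 31.7 and 34.7 RPKM at SC25. A GDSL-like lipase, Glyma.16G029100.1, had 139 and 181 RPKM at SC100, against 62.8 and 84.8 RPKM at SC25 (log2 fold change 1.16 ± 0.57). Glutamine synthetase 1;4, Glyma.18G041100.1, an enzyme of nitrogen assimilation, had 11.1 and 10.9 RPKM at SC100, against 27.3 and 24.1 RPKM at SC25 (log2 fold change -1.28 ± 0.56). All 7 were at most 2.44 RPKM in every cotyledon library.

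Other genes differed more between the 2 SC25 libraries than between the stages. The WRKY model Glyma.05G215900.1 had 2.14 and 6.84 RPKM at SC100, against 1.24 and 22.3 RPKM at SC25, and expansin-like A1, Glyma.11G096700.1, had 25.1 and 21.7 RPKM at SC100, against 14 and 60.4 RPKM at SC25. Phloem protein 2-B10, Glyma.10G169600.1, had 7.70 and 11.5 RPKM at SC100, against 2.60 and 25.7 RPKM at SC25. In each of them SC25 replicate 2 was the highest of the 4 libraries and SC25 replicate 1 the lowest.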
